A study of Danio rerio with 4 samples.

Results

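The apolipoprotein genes described here are apoa1a, apoa1b, apoa2, apoa4b.1, apobb.1, apobb.2, apoc1, apoc2, apom and apoeb, chosen by their zebrafish gene symbols. They are 10 of the 31953 genes in the deposited gene table, and all 10 passed the filter on low counts. Apolipoproteins are the protein part of the particles that carry fat and cholesterol in blood. Large B-type apolipoproteins form the frame of triglyceride-rich particles, A-type ones form the frame of high-density lipoprotein, and small exchangeable ones direct enzymes and receptors to the particles. In fish larvae they are known as products of the liver, the intestine and the yolk syncytial layer, a tissue that exports yolk fat.

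The libraries compare zebrafish larvae with the uhrf1(hi272) genotype with libraries labelled as their siblings, all taken at 120 h after fertilisation. Uhrf1 is a chromatin protein needed to copy DNA methylation to new strands, and the series asks how transcripts differ between the mutants and larvae of normal appearance. Each group had 2 libraries, and each library is labelled as coming from pooled entire larvae. The labels give 10 larvae per extract in the protocol and 10 to 20 per pool in the design, and mutants were recognised by their appearance. The genotype of the normal-looking siblings is not given, and the labels name no other allele. The labels do not tie replicate numbers to the 2 clutches, so p-values cover only the library-to-library spread here, which may be technical.

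Gene reads numbered 571978 and 564941 in mutant libraries, against 613370 and 812167 in sibling libraries. UHRF1 had 7 and 9 reads in mutant libraries, against 2 and 17 in sibling libraries, too few to check the labels. The sibling libraries, headed ABNYU in the table, went against their label of entire larvae. Of 18 lens genes, 3 were at 0 in each mutant library and 17 were at 0 in each sibling library, and skeletal muscle markers took 11.7% and 11.1% of gene reads in mutants and 0.0862% and 0.0326% in siblings. Hepatocyte markers, none of them apolipoproteins, took 0.188% and 0.119% in mutant libraries, against 12.9% and 9.75% in sibling libraries. Exocrine pancreas markers took 19.8% of sibling replicate 2 and no more than 0.0721% of any other library. Every comparison here uses these sibling libraries, so genotype and tissue make-up cannot be told apart, and "fell" and "rose" describe the libraries only. In pooled larvae, fewer cells of a type and less RNA per cell cannot be told apart either.

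Together the 10 genes took far fewer reads in the mutant libraries. Their summed share of gene reads was 0.719% (Wilson 95% interval 0.697% to 0.741%) in mutant replicate 1 and 0.466% (0.448% to 0.484%) in mutant replicate 2. In the sibling libraries it was 16.6% (16.5% to 16.7%) and 12.9% (12.8% to 13%). The group means were 0.592% ± 0.179 in mutants and 14.7% ± 2.59 in siblings (SD, n = 2 each). The intervals cover counting error only. The 2 groups did not overlap, but with 2 libraries against 2 the smallest two-sided p of an exact permutation test is 0.333.

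Gene by gene, 9 of the 10 fell and apoa1a did not pass (quasi-likelihood test in edgeR; p adjusted after Benjamini and Hochberg over all 8133 tested genes, under 0.05). Of all tested genes, 25.9% were lower in mutants and 35.2% were higher, 61.0% in all. The median log2 fold change of the 10 genes, mutant over sibling, was -6.36, against 0.48 over all tested genes. Libraries were scaled by TMM, which sets the bulk of genes to no change. Scaled to total gene reads, 8 fell and apoa1a rose (12.5% of all tested genes lower, 68.7% higher). Scaled to ribosomal protein reads, 8 fell and apoa1a and apoeb rose (8.08% lower, 79.0% higher). The medians of all tested genes were then 2.17 and 3.10. The genes span from apoa1a, which did not pass, to apoa2, with an 870-fold lower mean level in mutants. They are taken below by role, with reads in replicate order and levels in CPM, the usual unit of reads relative to the scaled library size.

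**Figure D1:**
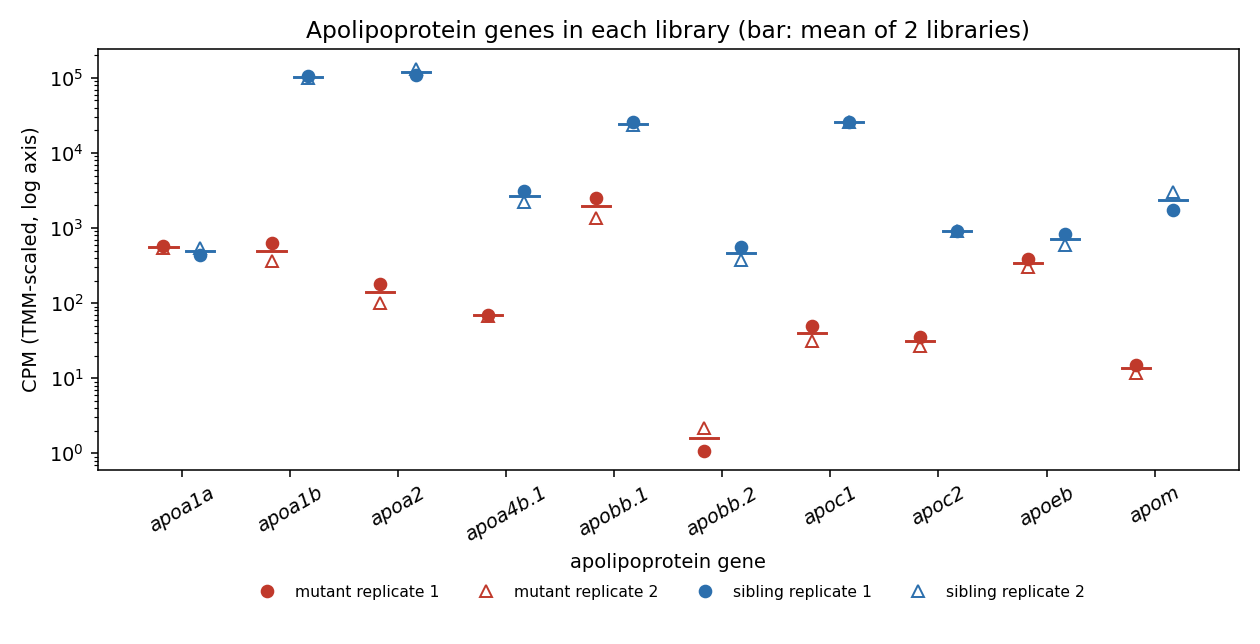
Level of each apolipoprotein gene in each library in TMM-scaled CPM on a log axis, with mutant libraries in red to the left of sibling libraries in blue and a bar at each group mean. The sibling libraries lie above the mutant libraries for 9 genes, and for 32.0% of all tested genes. apoa1a lies at 549.6 to 573.9 CPM in mutants and 435.3 to 541.2 CPM in siblings.

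The B-type genes encode the large, non-exchangeable protein of very-low-density and low-density particles, and both fell, to very different extents. apobb.1 (ENSDARG00000022767) had 2312 and 1279 reads in mutant libraries, against 9617 and 8459 in sibling libraries. These reads correspond to 1940 ± 803 CPM in mutants and 24678 ± 1870 CPM in siblings (SD, n = 2 each). The groups were separate, with siblings above mutants, as for 32.0% of all tested genes. The fitted log2 fold change was -3.67 ± 0.43 (edgeR adjusted p = 1.17e-05). Here and below, ± on a fold change is a standard error worked back from the test statistic. It can be too small for genes with few reads in a group. The mutant libraries differed here, with 1.81 times as many reads in replicate 1 as in replicate 2. apobb.2 (ENSDARG00000075016) had 1 and 2 reads in mutant libraries, against 208 and 134 in sibling libraries. Its log2 fold change was -8.01 ± 0.51 (edgeR adjusted p = 5.31e-08). DESeq2 gave a wider standard error of 0.98. From the summed counts it was 289-fold lower in mutants, with a 95% counting interval of 97.9 to 1407. Within a library there were 0.0433 and 0.156 apobb.2 reads per 100 apobb.1 reads in mutants, and 2.16 and 1.58 in siblings. The mean log2 ratio of the pair was 4.49 lower in mutants, without overlap (exact permutation p = 0.333, two-sided, the smallest possible). How reads shared by such paralogs were assigned is not given in the sources used here, so their separate counts are uncertain.

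The A-type genes of high-density lipoprotein gave both the largest fall and the gene with no detectable change. apoa2 (ENSDARG00000015866), whose human counterpart is an abundant structural protein of that particle, had 165 and 93 reads in mutant libraries, against 40675 and 48187 in sibling libraries. No gene had more reads in sibling replicate 2. Its levels were 139 ± 56.0 CPM in mutants and 121507 ± 16321 CPM in siblings, and the log2 fold change was -9.77 ± 0.56 (edgeR adjusted p = 4.03e-08). The precision depended on the fit: without the robust option of edgeR the standard error was 1.28 and the adjusted p 4.15e-04. With no count filter the edgeR adjusted p was 0.00821. Of the 8133 tested genes, 48 had a more negative fold change. apoa1b (ENSDARG00000101324), a counterpart of the main structural protein APOA1 of human high-density lipoprotein, had 586 and 336 reads in mutant libraries, against 38921 and 36077 in sibling libraries. Its levels were 498 ± 195 CPM in mutants and 102418 ± 3969 CPM in siblings. It fell, with a log2 fold change of -7.68 ± 0.51 (edgeR adjusted p = 7.37e-08). Without the robust option the standard error was 1.13 and the edgeR adjusted p 7.46e-04.

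apoa1a (ENSDARG00000012076), the paralog of apoa1b, had 529 and 512 reads in mutant libraries, against 161 and 196 in sibling libraries. Its levels were 562 ± 17.2 CPM in mutants and 488 ± 74.9 CPM in siblings. The mutant libraries lay above the sibling libraries, as they did for 48.9% of all tested genes. The log2 fold change was 0.20 ± 0.30 (edgeR adjusted p = 0.581), near the median of all tested genes. With total-count scaling it rose by 1.92 ± 0.30 (adjusted p = 2.69e-04) and with ribosomal protein scaling by 2.86 ± 0.35 (adjusted p = 1.70e-05), both below the median change of all genes in those scalings. A within-library ratio does not depend on the scaling. There were 90.3 and 152 apoa1a reads per 100 apoa1b reads in the mutants, against 0.414 and 0.543 in the siblings. The mean log2 ratio was 0.23 ± 0.53 in mutants and -7.72 ± 0.28 in siblings (SD, n = 2 each), a difference of 7.95 without overlap (exact permutation p = 0.333, two-sided, the smallest possible).

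apom (ENSDARG00000076838), known in mammals as the carrier of sphingosine 1-phosphate on high-density lipoprotein, had 14 and 11 reads in mutant libraries, against 647 and 1099 in sibling libraries. Its levels were 13.5 ± 2.39 CPM in mutants and 2392 ± 909 CPM in siblings. The log2 fold change was -7.45 ± 0.48 (edgeR adjusted p = 6.07e-08), with no overlap between groups, as for 32.0% of all tested genes in this direction. Among the 10 genes it was the one with the widest gap between the sibling libraries, with 0.589 times as many reads in sibling replicate 1 as in sibling replicate 2.

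The small exchangeable genes of triglyceride-rich particles all fell. apoc1 (ENSDARG00000092170), whose mammalian counterpart hinders uptake and transfer of particle lipids, had 46 and 29 reads in mutant libraries, against 9639 and 9333 in sibling libraries. Its log2 fold change was -9.31 ± 0.54 (edgeR adjusted p = 4.03e-08), the second-largest fall of the family after apoa2. apoc2 (ENSDARG00000092155), the cofactor that lipoprotein lipase needs, had 33 and 25 reads in mutant libraries, against 335 in each sibling library. Its log2 fold change was -4.86 ± 0.36 (edgeR adjusted p = 1.90e-07). There were 71.7 and 86.2 apoc2 reads per 100 apoc1 reads in mutant libraries, against 3.48 and 3.59 in sibling libraries. The mean log2 ratio was 4.48 higher in mutants, again without overlap (exact permutation p = 0.333, two-sided). apoa4b.1 (ENSDARG00000040298), related to the mammalian APOA4 made by the intestine during fat absorption, had 65 and 63 reads in mutant libraries, against 1162 and 797 in sibling libraries. Its log2 fold change was -5.27 ± 0.40 (edgeR adjusted p = 2.22e-07).

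apoeb (ENSDARG00000040295) encodes an apolipoprotein E, a ligand of the low-density lipoprotein receptor family that macrophages and microglia also make. It had 359 and 280 reads in mutant libraries, against 307 and 213 in sibling libraries, the smallest change of the genes that fell. Its levels were 345 ± 62.9 CPM in mutants and 709 ± 171 CPM in siblings, without overlap, as for 32.0% of all tested genes in this direction. The log2 fold change was -1.04 ± 0.32 (edgeR adjusted p = 0.0135). The call ended without either mutant library (adjusted p = 0.150 without replicate 1 and 0.285 without replicate 2), without sibling replicate 1 (0.0606), with DESeq2 (0.0640) and with no count filter (0.183). The direction turned to 0.63 with total-count scaling (adjusted p = 0.124), and it rose by 1.55 with ribosomal protein scaling (adjusted p = 0.00244). Macrophage and microglia markers had 134 and 141 reads in mutant libraries, against 87 and 45 in sibling libraries over 25 genes, of which 13 and 14 were detected in mutants and 16 and 13 in siblings. Only 3 of the 25 passed the count filter, csf1ra, cd74a and cd74b, and all 3 rose, where 35.2% of all tested genes rose. They passed the filter only through the mutant libraries, with 53 and 49 reads against 3 and 7 for cd74a. Their direction was thus largely set by the filter and carries little information. The untested markers were mixed in direction. For MFAP4 (ENSDARG00000090557) the sibling libraries held 38 and 13 reads, while the mutant libraries held 1 and 0. For MPEG1 (ENSDARG00000043093) the sibling libraries held 2 and 0, while the mutant libraries held 6 and 14. Epidermis markers had 5358 and 5405 reads in mutant libraries, against 167 and 103 in sibling libraries. Their part in the apoeb value was not tested.

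Because the genes fell to such different extents, the make-up of apolipoprotein reads differed between the groups. These shares count reads, uncorrected for transcript length, so they compare libraries and not genes. apobb.1 gave 56.3% and 48.6% of the reads of the 10 genes in mutants and 9.46% and 8.07% in siblings. apoa1a gave 12.9% and 19.5% in mutants and 0.158% and 0.187% in siblings, and apoeb 8.73% and 10.6% in mutants and 0.302% and 0.203% in siblings. The opposite held for apoa2, with 4.01% and 3.54% in mutants and 40.0% and 46.0% in siblings. apoa1b gave 14.3% and 12.8% in mutants and 38.3% and 34.4% in siblings, and apoc1 1.12% and 1.1% in mutants and 9.48% and 8.90% in siblings.

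**Figure D2:**
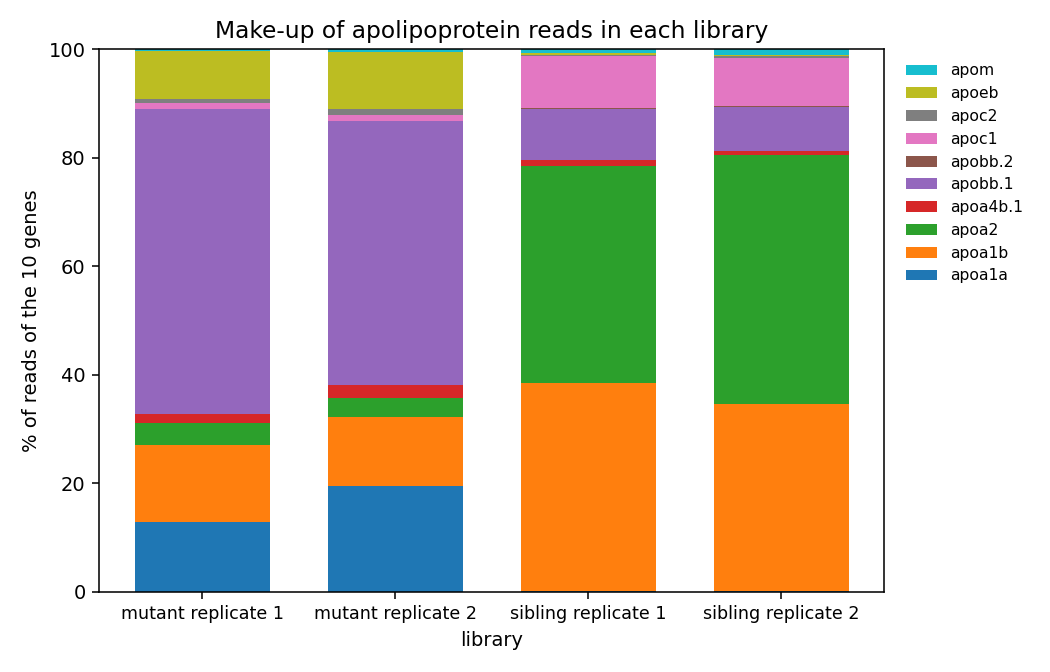
Percent of the summed reads of the 10 apolipoprotein genes that each gene holds, as stacked bars for the 2 mutant libraries and then the 2 sibling libraries. apobb.1, apoa1a, apoa1b and apoeb fill most of the mutant bars, and apoa2 and apoa1b fill most of the sibling bars.

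Hepatocyte markers also fell in the mutants: all 40 of 40 tested did, where 25.9% of all tested genes fell. Many passed the count filter only through the sibling libraries. The median log2 fold change was -7.77 and the fitted range was -12.60 to -2.99. Its low end, itih3a.1, had no read in either mutant library and was at least 741-fold lower against a floor of 3 counts over the group. The apolipoprotein genes were therefore also counted per 1000 hepatocyte marker reads of the same library. apoa1b had 544 and 501 in mutants against 491 and 456 in siblings, with nearby ratios in both groups. apobb.2 had 0.929 and 2.98 against 2.62 and 1.69, and apom had 13 and 16.4 against 8.15 and 13.9. With libraries scaled to these marker reads, none of these 3 passed, at log2 fold changes of 0.14 ± 0.52 for apoa1b, -0.30 ± 0.98 for apobb.2 and 0.40 ± 0.63 for apom (edgeR adjusted p = 0.784, 0.760 and 0.532).

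On the same liver-relative scale apoa2 and apoc1 were still lower, relative to the summed marker reads. That sum leans on few genes: in sibling replicate 1, fabp10a and tfa gave 17817 and 19982 of 79343 reads. In mutant replicate 1 they gave 45 and 91 of 1077 reads, and RBP4 and c3a.1 gave 249 and 212, so the mix of markers differed. With TMM scaling the log2 fold changes of apoa2 and apoc1, -9.77 and -9.31, lay within the range of single hepatocyte markers with mutant reads, such as -10.51 for fabp10a and -2.99 for FAH. apoa2 had 153 and 139 reads per 1000 hepatocyte marker reads in mutant libraries, against 513 and 609 in sibling libraries, at a log2 fold change of -1.94 ± 0.54 (edgeR adjusted p = 3.18e-04). apoc1 had 42.7 and 43.2 in mutants and 121 and 118 in siblings, at -1.48 ± 0.56 (adjusted p = 0.00926). Of all tested genes, 0.430% were lower on this scale and 96.4% were higher, with a median of 8.33.

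The other 5 genes were higher on this scale. apobb.1 had 2147 and 1906 per 1000 hepatocyte marker reads in mutants and 121 and 107 in siblings, at 4.15 ± 0.59 (edgeR adjusted p = 2.64e-12). apoeb had 333 and 417 against 3.87 and 2.69, and apoa1a 491 and 763 against 2.03 and 2.48. The log2 fold changes were 6.84 for apoeb and 8.12 for apoa1a, against the median of 8.33 over all tested genes. Minus that median they were -1.49 for apoeb and -0.21 for apoa1a. apoc2 and apoa4b.1 were the lowest of the 5, at 3.0 and 2.63. Whether tissues other than liver supplied these reads was not tested. Intestine markers had 527 and 363 reads over 25 genes in mutants and 116 and 132 in siblings, with 21 genes detected in each mutant library and 13 in each sibling library. Of 10 tested with TMM scaling, 5 rose and 1 fell (median 1.86), against 35.2% higher and 25.9% lower over all tested genes. The 5 that rose passed the count filter through their mutant reads, such as VIL1 with 77 and 48 against 1 and 6. Their direction was thus largely set by the filter.

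**Figure D3:**
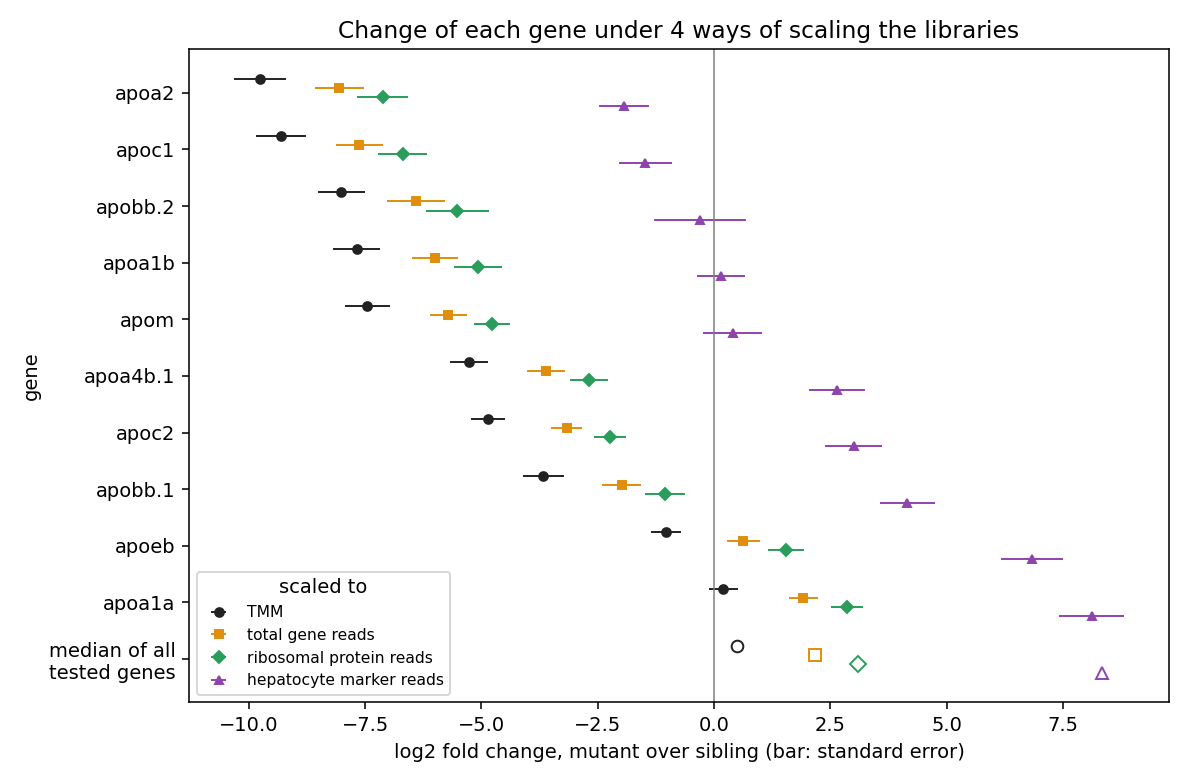
Log2 fold change, mutant over sibling, with its standard error for each apolipoprotein gene under 4 scalings, from apoa2 at the top to apoa1a, with open symbols for the median of all tested genes. A change of scaling shifts all genes by nearly the same amount, so the genes keep 1 order under all 4 scalings while zero moves. Minus the median of all tested genes, the TMM values run from -10.2 for apoa2 through -1.52 for apoeb to -0.28 for apoa1a.

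Libraries of 1 group were also set against each other. The chi-square used here allows for counting error only and grows with read number, and the all-gene value of the siblings includes the exocrine pancreas reads of replicate 2. Over all genes with at least 10 reads in the pair, chi-square divided by its degrees of freedom was 1.31 within mutants and 35.5 within siblings. Over the apolipoprotein genes it was 9.83 for the mutants (9 genes) and 111 for the siblings (10 genes). Mutant replicate 1 had 1.74, 1.77, 1.81 and 1.59 times the reads of replicate 2 for apoa1b, apoa2, apobb.1 and apoc1, and 1.61 times for the summed hepatocyte markers. For apoa1a and apoa4b.1 this ratio was 1.03. The hepatocyte markers of the sibling libraries had a ratio of 1.0.

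Of the 10 genes, 5 are close neighbours. In the RefSeq gene table of assembly GRCz12tu, used only for gene order, the run from apoa4b.1 to apoc2 holds 10 coding genes. In order, the apolipoprotein genes are apoa4b.1, apoa4b.3, apoa4b.2, apoeb, apoc1, apoc4, apoa2 and apoc2. The neighbours did not change to a like extent: apoeb fell by 1.04 on the log2 scale, and apoc1 beside it by 9.31. There were 780 and 966 apoeb reads per 100 apoc1 reads in mutant libraries, against 3.18 and 2.28 in sibling libraries, a difference of 8.33 in the mean log2 ratio without overlap (exact permutation p = 0.333, two-sided, the smallest possible). Set against apoa2, apoeb had 218 and 301 reads per 100 in mutant libraries, against 0.755 and 0.442 in sibling libraries. In all, 5 such pairs of genes were compared, each without overlap and each at p = 0.333 in the exact permutation test, before and after Benjamini-Hochberg adjustment. Each pair joined genes with unlike fold changes, so the lack of overlap restates those changes and is no further support. The share of other gene pairs without overlap was not computed. apoc4, next to apoc1, had no read in either mutant library, against 12 and 16 reads in sibling libraries, at least 23.6-fold lower against a floor of 3 counts over the group (edgeR adjusted p = 2.35e-05). Without sibling replicate 2 it was not tested. apoa4b.2 had 57 and 27 reads in mutant libraries, against 3 and 22 in sibling libraries, with overlap in CPM, and did not pass (log2 fold change 0.40 ± 0.75, edgeR adjusted p = 0.668). apoa4b.3 had 0 and 0 reads in mutant libraries, against 0 and 7 in sibling libraries.

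**Figure D4:**
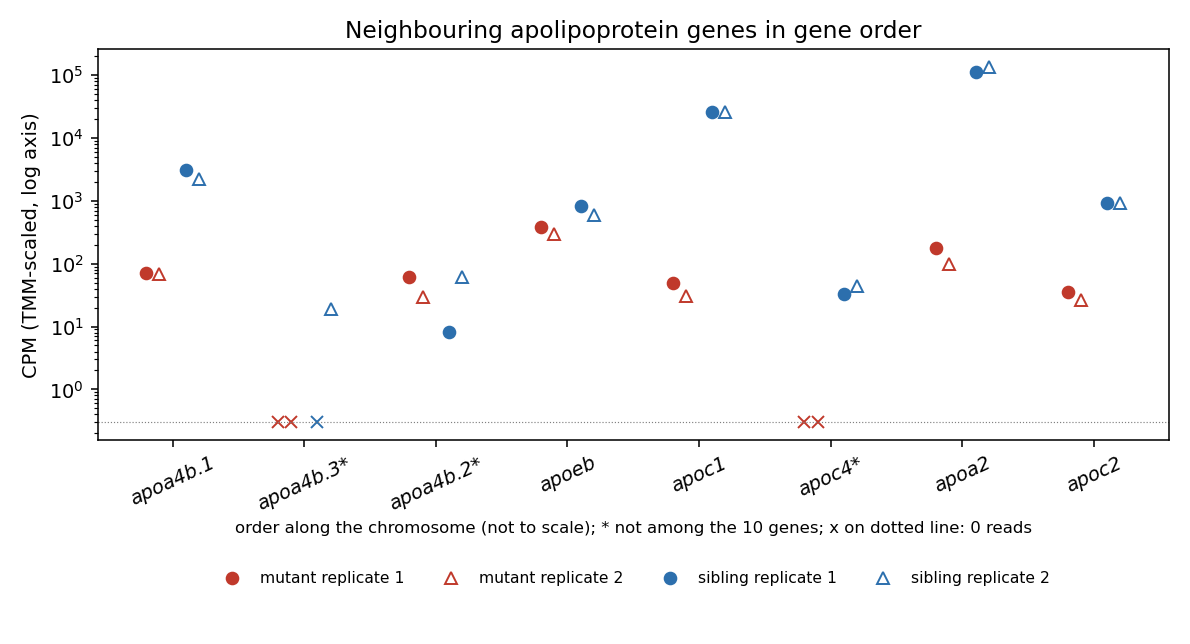
Level in TMM-scaled CPM on a log axis of the apolipoprotein genes between apoa4b.1 and apoc2, in gene order and not to scale, with mutant libraries in red to the left of sibling libraries in blue. The gap between groups is widest at apoa2 and apoc1 and narrow at apoeb, which lies between apoa4b.2 and apoc1.

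By the distance between centred log2 CPM profiles over the 4 libraries, the 5 genes most like the median profile of the apolipoprotein genes were c8b, RIDA and a few genes named only by clone, out of 1954 candidates. The nearest, c8b, encodes a subunit of complement component 8 and had 5 and 5 reads in mutant libraries, against 191 and 153 in sibling libraries (distance 0.118). Among the others, si:ch211-262h13.5 and si:dkey-96g2.1 had no read in either mutant library. Their mutant level in the profile rests on the prior count alone, and their fitted log2 fold changes were -9.81 and -9.70. The profile of apoeb had other nearest genes, PRKAR1A, prkacaa, EIF4EBP2, NPC1 and APLP1, with distances of 0.0409 to 0.164. The closest, PRKAR1A, a regulatory subunit of protein kinase A, had 54 and 43 reads in mutant libraries, against 49 and 33 in sibling libraries. With 4 libraries such likeness is a description.

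Other apolipoprotein and related genes were too low to test in 17 of 22 cases. Of the 5 tested, APOB and apoc4 fell, CLU rose, and apoa4b.2 and apoea did not pass (median 0.40). APOB (ENSDARG00000042780), a further B-type gene, had 148 and 97 reads in mutant libraries, against 1940 and 1211 in sibling libraries, with a log2 fold change of -5.02 ± 0.44 (edgeR adjusted p = 7.94e-07). apoea, the other apolipoprotein E gene, had 127 and 83 reads in mutant libraries, against 2 and 36 in sibling libraries, with a log2 fold change of 1.12 ± 1.06 (edgeR adjusted p = 0.419). It passed, higher, with total-count scaling (adjusted p = 0.00681), with ribosomal protein scaling (0.00113) and without sibling replicate 2 (0.00297). CLU, clusterin, had 48 and 47 reads in mutant libraries, against 0 and 4 in sibling libraries, at 3.18 ± 0.65 (edgeR adjusted p = 9.78e-04). It did not pass without mutant replicate 1 (0.135), without mutant replicate 2 (0.0823) or with no count filter (0.0622). One APOD gene (ENSDARG00000060350), named after its values were seen, had 3 and 0 reads in mutant libraries, against 2 and 2924 in sibling libraries, where the last value is from the library with the exocrine pancreas reads. The vitellogenins, yolk precursors related to the B-type apolipoproteins, had 0 to 2 reads per gene and library. apoda.1 had 0 and 4 reads in mutant libraries, against 2 and 0 in sibling libraries, and apoa4a had 1 and 1 against 1 and 8.

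Genes for building the particles fell in 11 of 12 tested cases, with a median log2 fold change of -3.33. Of all tested genes, 25.9% fell and 35.2% rose. MTTP, the transfer protein that loads fat onto B-type apolipoproteins, had 15 and 15 reads in mutant libraries, against 154 and 152 in sibling libraries. It fell by 4.67 on the log2 scale (edgeR adjusted p = 2.12e-07). PLA2G12B, needed for large triglyceride-rich particles, had 11 and 9 reads in mutant libraries, against 410 and 406 in sibling libraries, at -6.66 ± 0.40 (adjusted p = 4.37e-08). DGAT2, an enzyme of triglyceride synthesis, was at -2.87 ± 0.61 (adjusted p = 0.00372), but its call ended with total-count scaling (0.0885) and ribosomal protein scaling (0.640) and without mutant replicate 2 (0.0691) or sibling replicate 1 (0.0830), or with no count filter (0.110). Under total-count scaling 7 of the 12 fell and 1 rose, where 12.5% of all tested genes fell and 68.7% rose. Under ribosomal protein scaling it was 6 and 2, where 8.08% fell and 79.0% rose. Fewer genes of the list passed without mutant replicate 1 or without mutant replicate 2, and fewer passed over all tested genes too. The medians of the list were then -3.56 over 15 tested genes and -3.25 over 14. Scaled to hepatocyte markers, 9 of the 12 rose and the rest missed the threshold (median 4.45), where 96.4% of all tested genes rose with a median of 8.33.

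**Figure D5:**
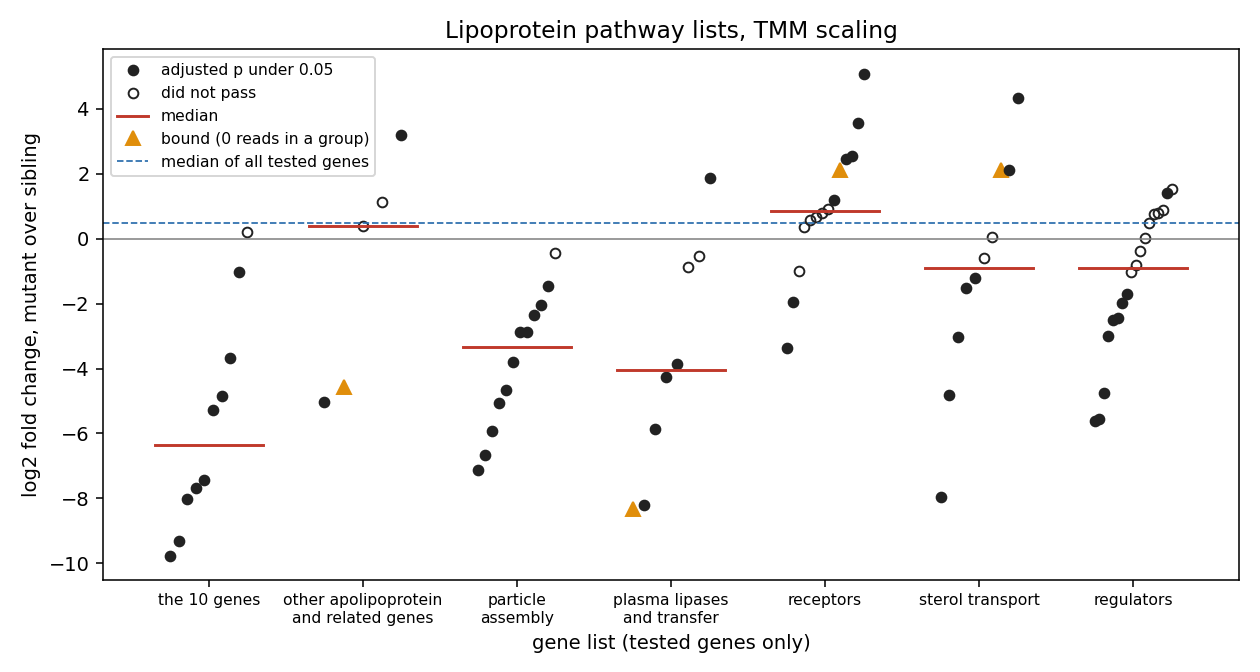
Log2 fold change, mutant over sibling with TMM scaling, of every tested gene in the apolipoprotein family and in 6 lists of lipoprotein genes. Filled circles passed the test, open circles did not, orange triangles are bounds for genes at 0 reads in a group, and red bars are medians, from -6.36 for the 10 apolipoprotein genes to 0.84 for the receptors.

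Plasma lipase and transfer genes fell in 5 of 8 tested cases and rose in 1, with a median of -4.05. Of all tested genes, 25.9% fell and 35.2% rose. CETP, which exchanges cholesteryl esters between particles, had no read in either mutant library, against 207 and 170 reads in sibling libraries, at least 318-fold lower against the floor of 3 counts over the group (edgeR adjusted p = 4.55e-08). LIPC, hepatic lipase, had 1 and 1 reads in mutant libraries, against 156 and 117 in sibling libraries, at -8.19 ± 0.51 (adjusted p = 4.70e-08). LPL (ENSDARG00000087697), the lipase that needs apoc2, had 21 and 13 reads in mutant libraries, against 127 and 71 in sibling libraries, at -3.86 ± 0.42 (adjusted p = 5.16e-06). LCAT, which esterifies cholesterol on high-density lipoprotein, was at -4.25 ± 0.45 (adjusted p = 4.73e-06). The same number of this list fell with total-count and with ribosomal protein scaling, where 12.5% and 8.08% of all tested genes fell. The gene that rose, lipcb, named after its value was seen, was at 1.87 ± 0.66 (edgeR adjusted p = 0.0264). Its call did not hold when any 1 library was left out, where fewer genes rose over all tested genes too.

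Of 14 receptor genes tested, 6 rose and 2 fell, with a median of 0.84, against 35.2% higher, 25.9% lower and a median of 0.48 over all tested genes. ldlra, a low-density lipoprotein receptor, had 12 and 16 reads in mutant libraries, against 89 and 27 in sibling libraries, at -3.37 ± 0.54 (edgeR adjusted p = 3.76e-04). It did not pass with ribosomal protein scaling (0.244), without mutant replicate 1 (0.114), without mutant replicate 2 (0.0554) or with no count filter (0.0680). Of 2 LRP1 genes, large receptors for apolipoprotein E-bearing remnants, ENSDARG00000097827 had 191 and 173 reads in mutant libraries, against 10 and 2 in sibling libraries. It rose by 3.57 ± 0.49 (edgeR adjusted p = 4.66e-05), though not without mutant replicate 1 (0.0667). The other LRP1 gene, ENSDARG00000029146, was at 0.68 ± 0.41 (edgeR adjusted p = 0.172), and passed, higher, with total-count scaling (0.00186), ribosomal protein scaling (1.82e-04) and without sibling replicate 1 (0.00946). SCARB1, a receptor for high-density lipoprotein, had 6 and 12 reads in mutant libraries, against 4 and 2 in sibling libraries and was not tested, and neither was CD36, with 10 and 6 against 1 and 0. Fewer receptor genes passed without mutant replicate 1 or without mutant replicate 2, and fewer passed over all tested genes too. The receptor medians were then 0.75 and 1.04, against 0.29 and 0.32 over all tested genes. Total-count scaling gave 11 rises and 1 fall, where 68.7% of all tested genes rose. Under ribosomal protein scaling these counts were 11 and 0, where 79.0% of all tested genes rose, so the receptor counts lie near the background.

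Sterol transport genes were mixed, with 5 of 10 tested genes lower, 3 higher and a median of -0.89. Of all tested genes, 25.9% were lower and 35.2% higher. ABCA1 (ENSDARG00000074635), which loads cholesterol onto apolipoprotein A1, had 220 and 209 reads in mutant libraries, against 95 and 67 in sibling libraries. Its log2 fold change was 0.07 ± 0.30 (edgeR adjusted p = 0.862), and it rose with total-count scaling (0.00103) and ribosomal protein scaling (4.20e-05). abca1b had 48 and 75 reads in mutant libraries, against 8 and 3 in sibling libraries and rose by 2.13 ± 0.48 (edgeR adjusted p = 0.00201). That call ended without mutant replicate 1 (0.0751), without mutant replicate 2 (0.0952) and with no count filter (0.0596). NPC1L1, the intestinal sterol uptake protein, was at -1.51 ± 0.47 (edgeR adjusted p = 0.0132), but at 0.19 with total-count scaling (0.709). With ribosomal protein scaling it was at 1.13 (0.0486), and the call ended when any 1 library was left out (0.0730 to 0.256). ABCG5 had 1 and 1 reads in mutant libraries, against 1 and 12 in sibling libraries and was not tested. Under total-count scaling 3 of the 10 fell and 4 rose, and under ribosomal protein scaling these counts were 2 and 7, against the same shares of 68.7% and 79.0% higher over all tested genes. Leaving out mutant replicate 1 gave 3 falls and 0 rises, and leaving out mutant replicate 2 gave 3 and 1. Leaving out sibling replicate 1 gave 2 and 2, and leaving out sibling replicate 2 gave 3 and 3.

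Regulators of lipid and liver genes fell in 8 of 18 tested cases and rose in 1, with a median of -0.91, and 18 more were too low to test. Of all tested genes, 25.9% fell and 35.2% rose. HNF4A, a nuclear receptor that drives many liver apolipoprotein genes, had 8 and 1 reads in mutant libraries, against 69 and 30 in sibling libraries. It fell, with a log2 fold change of -4.74 ± 0.64 (edgeR adjusted p = 1.28e-04), and kept its call under total-count and ribosomal protein scaling and when any 1 library was left out, but not with no count filter (0.0505). NR1H3, a sterol sensor, had 23 and 33 reads in mutant libraries, against 36 and 37 in sibling libraries. It was at -1.72 ± 0.35 (edgeR adjusted p = 9.85e-04), but at -0.01 with total-count scaling (0.974) and 0.92 with ribosomal protein scaling (0.0463), and it missed the threshold without mutant replicate 1 (0.104), without mutant replicate 2 (0.0554) and with no count filter (0.0515). SREBF1, a driver of fatty acid synthesis genes, had 42 and 40 reads in mutant libraries, against 3 and 9 in sibling libraries and rose by 1.42 ± 0.47 (edgeR adjusted p = 0.0189). That call ended without mutant replicate 1 (0.220), without mutant replicate 2 (0.161), without sibling replicate 1 (0.117), with DESeq2 (0.127) and with no count filter (0.0888). foxa3 had 3 and 3 reads in mutant libraries, against 12 and 11 in sibling libraries, creb3l3a had 0 and 1 against 16 and 10, and neither was tested. Under total-count scaling 4 of the 18 regulators fell and 8 rose, where 12.5% of all tested genes fell and 68.7% rose. Under ribosomal protein scaling these counts were 3 and 11, where 8.08% fell and 79.0% rose. The number of calls changed when 1 library was left out, and so did the set of tested genes. Without mutant replicate 1 the median was -2.23 over 25 tested regulators, and without sibling replicate 2 it was -1.70 over 26. The medians of all tested genes were then 0.29 and 0.62.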

How the data were processed

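The authors deposited raw read counts per Ensembl gene, with 1 column per library and no pooling, per the file headers. Per the submitters' processing notes, TopHat2, HTSeq and DESeq2 were used with build GRCz10, and no version is listed. Not given in the sources used here: settings, strand use and the handling of reads with several positions. Hence paralogs such as apobb.1 and apobb.2 and overlapping genes carry uncertain counts. Libraries were made from 1000 ng of RNA after depletion of ribosomal RNA and read as 75 bp single ends, per the labels. The deposited repeat counts were not used here.

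Gene symbols came from a table that matched 26121 of 31953 identifiers. All 10 members matched. Capitals follow that table, and list genes without a match were looked up by their symbol without the paralog suffix, a step added after the table was seen.

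Genes were tested with edgeR 4.0.16 in R 4.3.3 (filterByExpr by group, TMM, robust quasi-likelihood fit with group only, Benjamini-Hochberg over all tested genes, threshold 0.05). The procedure was first run on simulated counts whose groups differed only in a small set of genes, changed evenly in both directions. That run does not cover libraries that differ as widely as these, so it does not bear on TMM scaling or error rates here. The TMM factors were 1.78 and 1.83 for mutants and 0.630 and 0.485 for siblings. For a gene without reads in a group, fold bounds used a floor of 3 counts over both libraries of that group. Profiles for likeness used log2 CPM with a prior count of 2 and genes of at least 50 CPM on average. The genes named are the members and others fixed by name in the lists, unless stated. One gene of that rule is not reported here. The members and lists were chosen with earlier results of these data known. Alternatives were other scalings, no filter, DESeq2 1.42.0, a fit without robust, a replicate block and leaving out each library.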

Additional observations from a re-analysis of the deposited data

How the results depend on the processing

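With all libraries kept, the number of apolipoprotein genes that fell was 8 or 9 under every alternative but hepatocyte marker scaling, where it was 2. Of all tested genes, 12.5% fell with total-count, 8.08% with ribosomal protein and 0.430% with hepatocyte marker scaling. With no count filter 1462 of 23859 fell, and with DESeq2 1658 of 8133. When 1 library was left out, the median log2 fold change of the family lay between -6.35 and -6.13. The number that rose was 0, but 1 with total-count, 2 with ribosomal protein and 5 with hepatocyte marker scaling. In these 3 scalings 68.7%, 79.0% and 96.4% of all tested genes rose. With the replicate block 9 fell and 0 rose, among 4569 genes called against 4965 without it. The deviations of libraries with the same number correlated at 0.0425. This value cannot tell whether they shared a clutch, because the sibling replicates also differed in exocrine pancreas reads. Genes called in all numbered 7872 with hepatocyte marker scaling, 3002 with no count filter and 1264 to 4632 when 1 library was left out. Hepatocyte marker scaling turned the direction of apoa1b (0.14), apoa4b.1 (2.63), apobb.1 (4.15), apoc2 (3.0), apom (0.40) and apoeb (6.84) and of the median of the family (1.52), and apoeb also turned with total-count (0.63) and ribosomal protein scaling (1.55). By construction this scaling sets the fall of the hepatocyte markers to 0. The mean summed shares were 0.592% in mutants and 16.3% in siblings without pancreas marker reads, and 0.602% in mutants and 14.8% in siblings without mitochondrial genes. Of the counts in the fixed lists under alternatives, 77 stayed within 1.5 times of the reported count and 67 did not. Counting error limits apobb.2, with 3 reads over both mutant libraries.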
